A study of Mus musculus with 4 samples.

Results

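The genes described are the nuclear genes of the mitochondrial respiratory chain and the ATP synthase, 100 of the 21887 nuclear protein-coding genes that RefSeq annotates on GRCm38.p6 (mm10). They were chosen by symbol alone (Nduf, Sdha to Sdhd, Uqcr, Cox4 to Cox8 and Atp5), and 19 pseudogenes with such symbols were left out. The symbols take in 41 subunit genes of complex I, 4 of complex II, 8 of complex III, 18 of complex IV and 17 of complex V, and 12 assembly factor genes (Ndufaf and Sdhaf). These groups follow the symbol prefix alone. Ndufa4 and Ndufa4l2 are thus counted under complex I and Cox7a2l under complex IV, whatever complex the protein joins. The study mapped where MED1 sits on chromatin by ChIP-seq in RAW 264.7, an established macrophage-like line from mouse. MED1 is part of Mediator, the coactivator complex between transcription factors and RNA polymerase II. There were 2 libraries of untreated cells and 2 of cells given lipopolysaccharide (LPS) for 2 h, at 10 ng/mL by the sample labels and 100 ng/mL by the treatment protocol. One list of MED1 intervals was deposited for all 4 libraries, with no height, score or sample name, so no interval could be tied to a condition or a library. Untreated and stimulated cells were therefore not compared, read depth is unknown, no value below has a replicate error, and no statistical test was made.

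Abutting intervals were joined into 22570 regions, of median width 1948 bp. A gene is said to carry a region when a region overlaps the 1 kb on either side of one of its annotated ends. All 6 macrophage markers examined (Lyz2, Csf1r, Spi1, Adgre1, Cd68 and Itgam) carried a region, and 0 of 4 markers of other cell types did (Alb, Ckm, Syn1 and Cd3e).

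The respiratory chain lies in the inner mitochondrial membrane. Complexes I and II pass electrons from NADH and succinate to ubiquinone, complex III passes them to cytochrome c and complex IV to oxygen, while complexes I, III and IV pump the protons whose return drives complex V, the ATP synthase. Most subunits are encoded in the nucleus, scattered over many chromosomes, and are needed in fixed proportions; complex IV also has paired isoforms of several subunits, one used widely and one restricted to tissues such as muscle, lung or testis. Macrophages stimulated with LPS are known to rely less on respiration and more on glycolysis.

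MED1 regions lay at 89 of the 100 genes (89.0%), against 45.5% of all protein-coding genes. Every gene of complex II (4 of 4), complex III (8 of 8) and the assembly factors (12 of 12) carried a region. Complex I had 39 of 41 (95.1%) and complex V 16 of 17 (94.1%), while complex IV had 10 of 18 (55.6%). Other families of widely expressed genes had like shares, with 74 of 78 mitochondrial ribosomal protein genes (94.9%), 81 of 85 cytosolic ribosomal protein genes (95.3%) and 48 of 51 proteasome genes (94.1%). The high share was thus common to these families. When only regions of at least the median width of 1948 bp were counted, 44 of the 100 genes carried one, against 28.3% of all genes. Complex IV was then at 22.2%, under the share of all genes, complex I was at 36.6% and complex V at 70.6%. The 18 complex IV genes include 7 tissue-restricted isoforms, of which 1 carried a region of any width (931 bp). They also include Cox5a and Cox7a2, whose regions of 4707 and 2386 bp lie at starts away from the annotated ends and were not counted.

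**Figure D1:**
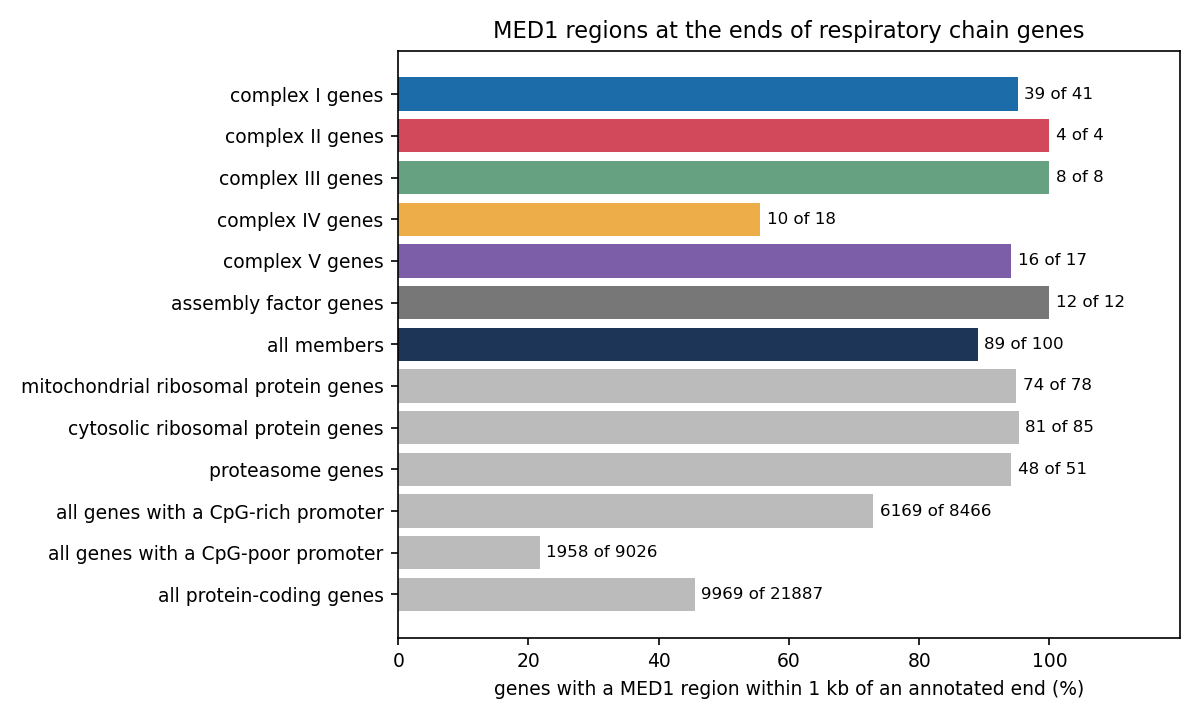
Share of genes with a MED1 region overlapping the 1 kb around an annotated gene end, in percent, with the counts beside each bar. Coloured bars are the complexes and the assembly factors, the dark bar all 100 genes, grey bars other gene sets. Complex IV, at 10 of 18, is the lowest of the coloured bars, and all protein-coding genes stand at 45.5%.

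Of the 11 genes without a region, 6 were tissue-restricted isoforms of complex IV subunits. The nearest region lay 9.7 kb from Cox6b2, the testis isoform of subunit 6b, and 11.3 kb from Cox4i2, the lung isoform of subunit 4. It was 15.9 kb from Cox8b and 30.2 kb from Cox6a2, both muscle isoforms. For the testis isoform genes Cox8c and Cox7b2 the distances were 19.9 and 618.8 kb. These genes thus had no region in their close surroundings. The seventh isoform of this kind, Cox7a1, the heart and muscle isoform of subunit 7a, did carry a region, of 931 bp, the narrowest in complex IV. The widely used counterparts Cox4i1 (2868 bp), Cox8a (2521 bp), Cox6a1 (2251 bp), Cox7b (1253 bp) and Cox6b1 (1227 bp) each carried one. Over the 7 subunits with such isoforms, the widely used gene had a region and the restricted ones had none in 5 (subunits 4, 6a, 6b, 7b and 8). The order was opposite at gene ends in 1, subunit 7a, where Cox7a2 had none. Both genes carried a region in 1, Ndufa4 (1774 bp) and its restricted homologue Ndufa4l2 (5839 bp).

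A pair of further complex IV genes, Cox5a and Cox7a2, were without a region only because of how far their annotation reaches. The Cox5a start in the promoter table lies 3904 bp inside the annotated gene and was covered by a region of 4707 bp. The Cox7a2 start lies 11569 bp inside and was covered by a region of 2386 bp. Both encode widely used subunits. With these starts counted, all 11 complex IV genes that are not tissue-restricted carried a region, up from 9 by gene ends alone, and the total rose to 91 of 100.

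The remaining 3 genes without a region belong to complexes I and V. Ndufb4b and Ndufb4c are short gene models of 471 and 485 bp whose symbols mark them as relatives of Ndufb4, a membrane-arm subunit gene. Their nearest regions were 18.2 and 60.3 kb away, whereas Ndufb4 itself carried a region of 1876 bp. Atp5h encodes subunit d of the peripheral stalk of the ATP synthase. Its nearest region was 1.3 kb from an end, just outside the window, and 90 of 100 genes carried a region with a window of 2.5 kb. Just inside the window lay the region of Atp5d (954 bp from the annotated end), and that gene also had a separate region of 2366 bp over its start.

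As a set, MED1 regions at these genes were close to the median width of all regions, and narrower than those at gene ends in general. Of the 93 regions at their ends, 46 (49.5%) were at least as wide as the median of all regions, against 56.7% of the regions at all gene ends. The median of the widest region per gene was 1928 bp (quartiles 1472 and 2926 bp), against 2316 bp (1616 and 3496 bp) over all genes with a region. Of the 89 genes, 46 had a widest region under 2 kb (51.7%, against 39.7% of all genes with a region) and 11 had one of at least 4 kb (12.4%, against 19.9%). Cytosolic ribosomal protein genes, another housekeeping family, had a median of 4371 bp, mitochondrial ribosomal protein genes 2034.5 bp and proteasome genes 2202 bp. By complex, the median was lowest in complex IV (1304.5 bp) and highest in complex V (2754.5 bp), with 1709 bp in complex I, 1907 bp in complex III, 2675 bp in complex II and 1905 bp for assembly factors. The groups overlapped widely, and complexes II and III hold few genes. In complex V the values of Atp5b (5586 bp) and Atp5d (3266 bp) come from the far end. Their start regions were 2682 and 2366 bp wide. The start regions of Cox5a (4707 bp) and Cox7a2 (2386 bp) are not in the complex IV median.

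Complex I takes electrons from NADH through a chain of iron-sulphur clusters. Its 7 nuclear core subunits all carried a region, but of very unequal widths. In the module that oxidises NADH, Ndufv1, which binds NADH, had 1172 bp and Ndufv2 1694 bp. Ndufs1, the largest iron-sulphur subunit of this module, had 3186 bp. In the module that reduces ubiquinone, Ndufs3 had 1888 bp and Ndufs7 2398 bp. Ndufs8, of the same module, had a region of 15742 bp, wider than 99.4% of all regions. The core median was 2398 bp and that of the accessory subunits 1567 bp (32 of 34 with a region). Among accessory genes the narrowest was at Ndufb11 on the X chromosome, a single interval of 417 bp that lay 281 bp from the gene and did not cover its start. The widest was at Ndufa2, with 20383 bp. Ndufab1, the mitochondrial acyl carrier protein, had a single interval of 1546 bp.

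Some of the widest regions in complex I also reached over neighbouring genes with functions outside respiration. Ndufs8 (chromosome 19, 3908863 to 3912774) lay whole inside its region (3901151 to 3916892, 3 intervals), which also held an end of Tcirg1, a proton pump subunit gene of lysosomes and osteoclasts, and of Aldh3b1. Ndufa2 (chromosome 18, 36742332 to 36744587) lay whole inside a region of 11 intervals (36730908 to 36751290), with ends of Tmco6 and Ik. A separate region of 3 intervals covered Cd14, the LPS co-receptor gene, beyond Tmco6. Other wide regions lay at Ndufb10 (7116 bp, with an end of Rps2), Ndufa7 (6206 bp, with ends of Rps28 and Kank3) and Ndufa4l2 (5839 bp, with an end of Shmt2). Ndufa4l2 is a homologue of Ndufa4 known to be induced in hypoxia. The list gives no means of dividing these regions between a respiratory gene and its neighbours.

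**Figure D2:**
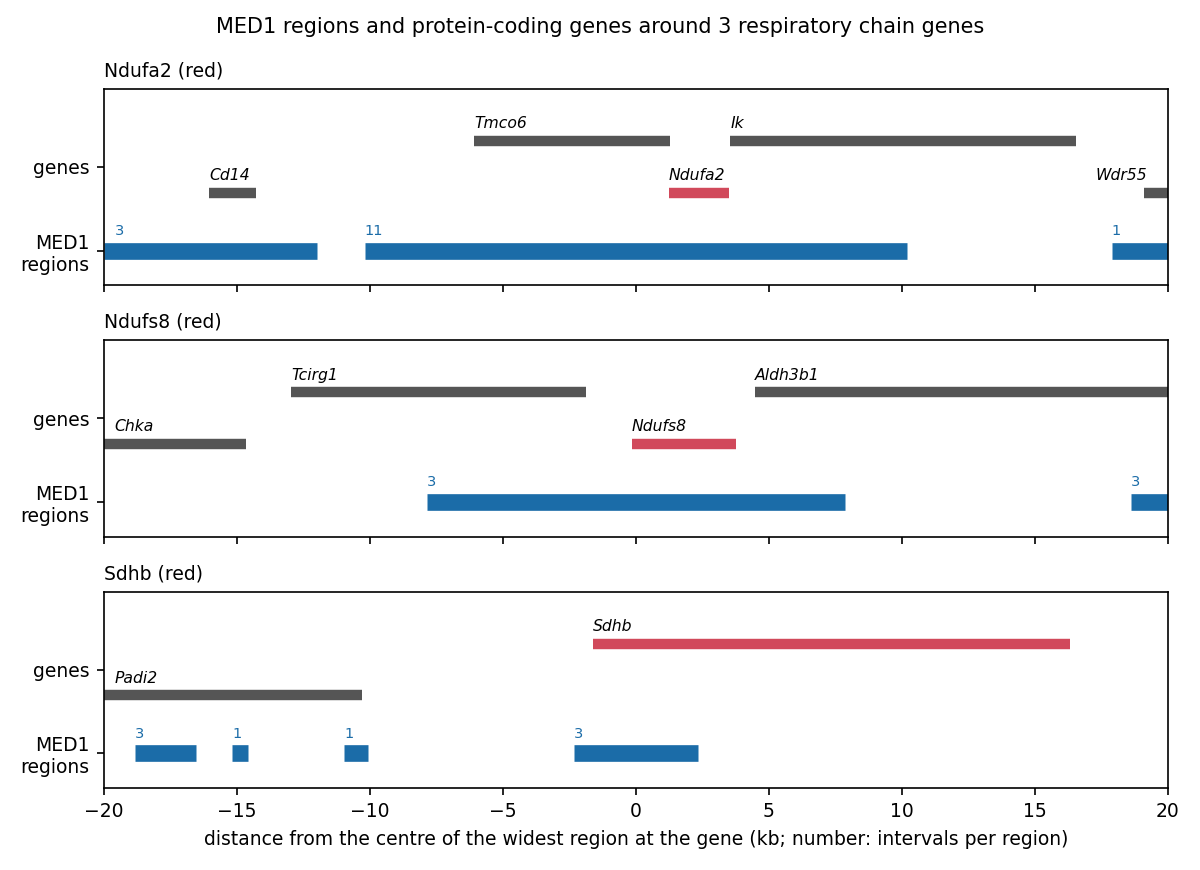
MED1 regions (blue, with the number of intervals) and protein-coding genes (red for the named respiratory gene, grey for others) within 20 kb of the centre of the widest region at Ndufa2, Ndufs8 and Sdhb. The horizontal axis is the distance from that centre in kb, and genes reaching past 20 kb are clipped. The regions at Ndufa2 and Ndufs8 reach over neighbouring genes, and the Sdhb region over Sdhb alone.

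Complex II, succinate dehydrogenase, links the chain to the citric acid cycle. Sdha, the flavoprotein that oxidises succinate, had a region of 2073 bp and Sdhb, the iron-sulphur subunit, one of 4681 bp. The membrane anchors Sdhc and Sdhd had 1676 and 3277 bp. At Sdhb the region reached 735 bp upstream and 3945 bp downstream of the start, without touching another gene's end. Its widest interval, of 3010 bp, was the last of the 3 in genome order. Apart from Ndufa4l2, Sdhb was the only gene with a 3-interval region whose widest interval was not the middle one.

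In complex III, Uqcrh, the hinge protein next to cytochrome c1, had the widest region (5620 bp, with an end of Lrrc41), followed by Uqcrq (3523 bp, with an end of Gdf9). The narrowest were at Uqcr11 (1326 bp) and Uqcrc1, a core subunit (1486 bp). Uqcrfs1, the Rieske iron-sulphur protein, had 1798 bp. In complex IV the widest were at Cox4i1 (2868 bp) and Cox7a2l, which encodes a supercomplex assembly protein (2693 bp), and the narrowest after Cox7a1 was at Cox6c (1092 bp). No complex IV gene had a region of 4 kb at an annotated end.

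In complex V the catalytic core and the membrane ring were alike in carrying regions. The alpha subunit gene Atp5a1 had 3091 bp and the gamma subunit gene Atp5c1 1875 bp. The 3 genes of the ring-forming c subunit, Atp5g1, Atp5g2 and Atp5g3, had 2397, 4000 and 2583 bp. Atp5o, which encodes the stalk protein that confers oligomycin sensitivity, had 3298 bp. The beta subunit gene Atp5b had a region of 2682 bp at its start and another of 5586 bp, a single interval, at its far end, where it held an end of Baz2a. The narrowest regions were at Atp5k (1401 bp) and Atp5mpl (1479 bp). Atp5j shared its region of 3443 bp with Gabpa, the gene of an ETS-family factor known as a regulator of respiratory genes.

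Assembly factors build the complexes without staying in them. Widths there ran from 1128 bp at Ndufaf6 and 1261 bp at Ndufaf2 to 3433 bp at Sdhaf1 and 5375 bp at Ndufaf3, with 3 intervals at all 12 genes.

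The regions were simple in structure. The 89 genes carried 93 regions, 0 of them shared by 2 of these genes, and 86 (92.5%) consisted of 3 intervals, against 75.4% of the regions at all gene ends. Single intervals made up 5 (5.38%, against 19%) and regions of 4 or more intervals 2 (2.15%, against 4.9%). The single intervals lay at Ndufb11, Ndufab1, Cox6a1, the far end of Atp5b and the far end of Ndufv2. Proteasome genes had 94.1% of 3 intervals and mitochondrial ribosomal protein genes 86.6%. In 84 of the 86 the middle interval was the widest (97.7%, against 93.6% at all gene ends), and it held a median of 77.4% of the region (80.5% at all gene ends). No source used here states what sets the boundaries between abutting intervals.

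The transcription start and strand were known for 82 of the 100 genes, from the RefSeq promoter table of GRCm38.p6. A region lay within 1 kb of the start in 77 of 82 (93.9%), against 45.4% of the 17492 genes with a known start, and it covered the start itself in 76. Of the 77, 67 had a region at the start and none at the far end, 10 had both, and 0 of the 82 had one at the far end alone. Among cytosolic ribosomal protein genes, which are shorter (median 3175 bp, against 7336.5 bp), 46 of 65 had both. Around the covered starts the region reached a median of 853 bp upstream and 1017 bp downstream, against 997 and 1169 bp over all genes. It reached further downstream in 44 of 76 genes (57.9%, against 59.3%). By complex this held for 16 of 33 genes in complex I, 9 of 10 in complex IV and 9 of 14 in complex V. Regions inside the gene body away from the ends were found at 4 of 100 genes (4.0%), against 3.47% of all genes shorter than 15 kb. The share of all genes, which are longer (median 17169 bp), was 17.5%. Of those 4, Cox5a, Cox7a2 and Atp5d had the start regions described above, and Ndufaf2 was the other. Ndufaf2 (106064 bp), Cox7a2 (16182 bp) and Cox5a (15100 bp) are themselves longer than 15 kb, so the sets compared are unlike in length.

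**Figure D3:**
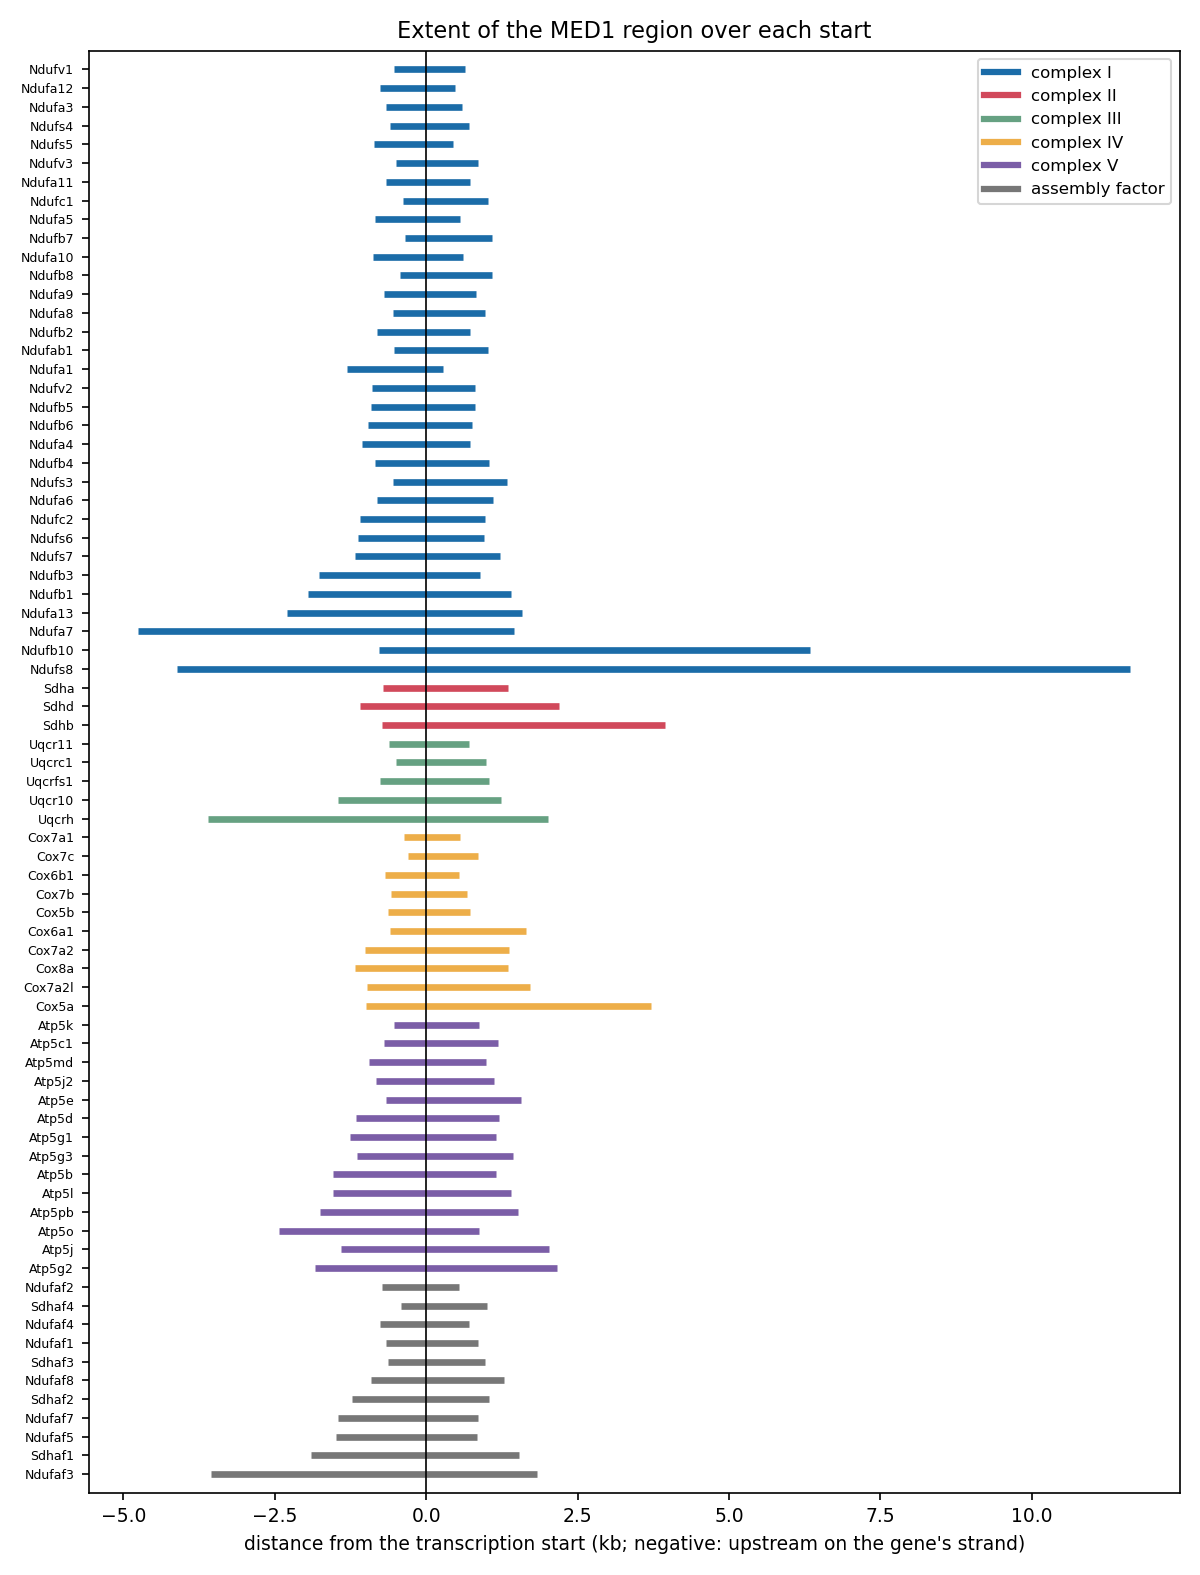
Extent of the MED1 region over the transcription start of the 76 genes whose start is known and covered, in kb from the start, with negative values upstream on the gene's strand. Each line is a gene, ordered by complex (colour) and then by width. Most lines reach about as far on either side, and Ndufs8, Ndufb10, Sdhb and Cox5a extend furthest downstream.

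Many of these starts face another gene. A divergent protein-coding gene, on the opposite strand with its start within 1 kb, was found for 22 of 82 genes (26.8%, against 7.52% of all genes with a known start and 13.8% of those with a CpG-rich promoter), and 21 of the 22 carried a region. Over all genes with such a neighbour, 90.9% did. Complex I had 10 of 35, complex II 2 of 3, complex III 2 of 5, complex V 4 of 15, assembly factors 4 of 11 and complex IV 0 of 13. The partners included other mitochondrial genes, Mrpl47 at Ndufb5 and Timm8b at Sdhd. A region held an end of another protein-coding gene at 41 of the 89 genes (46.1%, against 33.8% of all genes with a region and 44.4% of those shorter than 15 kb). These regions had a median of 2649 bp, and those holding no other gene's end 1519.5 bp. Over all genes the medians were 2763 and 2094 bp. Occupancy at such a start cannot be assigned to either gene of the pair.

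Most of the promoters were rich in CpG dinucleotides. The ratio of observed to expected CpG in the window from 250 bases before to 50 after the start had a median of 0.83, against 0.58 for all genes, and was at least 0.6 in 68 of 82 (82.9%, against 48.4%). Among all genes with such CpG-rich promoters, 72.9% carried a region at an end, and among the others 21.7%. The figures for the respiratory genes were 65 of 68 (95.6%) and 10 of 14 (71.4%). The 4 tissue-restricted isoform genes in the promoter table were all below 0.6, with 0.11 at Cox8b, 0.33 at Cox7a1, 0.43 at Cox6b2 and 0.56 at Cox7b2. Of the 6 widely used counterparts in the table, 5 were at least 0.6, and Cox7b, which carried a region, was at 0.37.

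The upstream sequences of 7 promoters are shown because they hold the motifs of known regulators of respiratory genes (Ndufa11, Atp5k, Sdhd and Uqcrh), contrast an occupied with an unoccupied isoform (Cox6b1 and Cox6b2), or lie in one of the widest regions (Ndufs8). They are the 150 bases before the start, 5′ to 3′ on the gene's strand, from RefSeq (GRCm38.p6). Capitals mark matches on either strand to 6 motifs searched (NRF1, ETS, YY1, SP1, TATA and NFY), whose letters are given with their counts after the sequences.
Ndufa11, chr17:56717612-56717761, plus strand: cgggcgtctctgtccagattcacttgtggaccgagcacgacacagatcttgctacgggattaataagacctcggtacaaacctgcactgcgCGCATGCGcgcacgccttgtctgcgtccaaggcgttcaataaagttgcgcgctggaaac
Atp5k, chr5:108434400-108434549, minus strand: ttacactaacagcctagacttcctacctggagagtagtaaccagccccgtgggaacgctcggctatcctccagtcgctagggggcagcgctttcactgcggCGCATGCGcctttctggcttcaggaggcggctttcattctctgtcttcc
Sdhd, chr9:50603850-50603999, minus strand: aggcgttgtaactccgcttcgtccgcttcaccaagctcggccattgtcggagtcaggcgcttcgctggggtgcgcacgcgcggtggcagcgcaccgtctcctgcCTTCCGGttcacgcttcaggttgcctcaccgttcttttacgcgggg
Uqcrh, chr4:116075071-116075220, minus strand: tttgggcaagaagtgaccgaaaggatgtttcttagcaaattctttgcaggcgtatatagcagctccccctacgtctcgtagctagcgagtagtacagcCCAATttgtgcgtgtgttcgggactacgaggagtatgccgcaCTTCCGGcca
Cox6b1, chr7:30626115-30626264, minus strand: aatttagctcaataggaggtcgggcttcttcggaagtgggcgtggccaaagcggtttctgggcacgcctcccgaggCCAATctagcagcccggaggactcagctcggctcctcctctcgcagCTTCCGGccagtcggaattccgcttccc
Cox6b2, chr7:4753095-4753244, minus strand: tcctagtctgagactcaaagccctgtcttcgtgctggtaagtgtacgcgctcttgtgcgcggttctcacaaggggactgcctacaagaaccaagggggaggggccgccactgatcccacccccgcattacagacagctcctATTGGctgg
Ndufs8, chr19:3912775-3912924, minus strand: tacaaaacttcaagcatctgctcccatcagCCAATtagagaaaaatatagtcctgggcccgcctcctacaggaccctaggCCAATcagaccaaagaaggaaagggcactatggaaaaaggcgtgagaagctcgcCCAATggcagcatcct

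NRF1, a factor known to act on nuclear respiratory genes, had its core CGCATGCG, which reads alike on both strands, in 10 of the 82 promoter windows of 300 bases. That is 12.2%, against 2.55% of all promoters. Among CpG-rich promoters it was in 14.7% of the respiratory ones and 4.76% of all. It began 59 bases before the start in Ndufa11 and 49 in Atp5k. The ETS core CCGGAAG was in 21 (25.6%, against 11.9%; CpG-rich promoters 26.5%, against 19.9%), among them Sdhd and Uqcrh, where it began 46 and 10 bases before the start. The YY1 core AAGATGG was in 11 (13.4%, against 6.35%; CpG-rich 13.2%, against 7.19%), of which 7 were in complex I. The SP1 box GGGCGG was in 39 (47.6%, against 46.3%). Among CpG-rich promoters it was in 51.5% of the respiratory ones and 74.1% of all. The TATA box TATAAA was in 9 (11%, against 13.3%) and the NFY box CCAAT in 35 (42.7%, against 39.2%). Among CpG-rich promoters TATAAA was in 5 of 68 respiratory ones (7.35%, against 5.85% of all). CCAAT was in 25 of 68 (36.8%, against 37.9%). Both directions turned there, by small margins that rest on few promoters. A closer background is the 7944 promoters of all genes with a region at the start. There CGCATGCG was in 4.68%, CCGGAAG in 21.8%, AAGATGG in 7.93%, GGGCGG in 66.5%, TATAAA in 6.63% and CCAAT in 39.9%. Against that background the respiratory share of CCGGAAG was only slightly higher, that of TATAAA was higher and that of GGGCGG lower. In Cox6b1 a CCAAT began 74 bases and an ETS core 28 bases before the start. Cox6b2 had a CCAAT 9 bases before its start, on the opposite strand, and no ETS core in the stretch shown. This pair is an example only. Atp5h had an ETS core 38 bases before its start but no region, and Cox5b had a region but no ETS core. Ndufs8 had 3 CCAAT boxes. No motif contains another, and a match describes letters only.

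Other genes of the pathway, from lists by function, had like shares. Among 34 further assembly factors of complexes I, III, IV and V, 32 carried a region (94.1%), the exceptions being Atpaf2 (nearest region 2.0 kb away) and Coa6 (71.8 kb). Among 10 electron carriers and coupling genes, 9 did. Cycs, the somatic cytochrome c gene, had 2 regions, and Cyct, its testis counterpart, had none within 9.1 kb. Ucp2, the uncoupling protein of macrophages and other cells, had the widest of this list (6528 bp). Of 12 regulators of respiratory genes, 11 did, including Nrf1 (1370 bp), Gabpa (3443 bp), Tfam, the mitochondrial DNA-packaging factor (3519 bp), Esrra (3 regions, the widest 5983 bp) and Ppargc1b (4778 bp). Ppargc1a, the coactivator best known from muscle, brown fat and liver, had none within 73.5 kb of either annotated end. Its annotated span is long (chromosome 5, 51454249 to 52115853), and regions deeper inside it were not looked at.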

How the data were processed

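MED1 ChIP-seq libraries (4) were aligned and peaks called by the authors; Bowtie, SAMtools, MACS2 2.2.6 and mm10 are named in the submitters' processing notes. Settings, control and pooling: not given in the sources used here. This deposited list holds starts and ends of 53764 intervals; the deposited score is 0 in every line. It has 0 columns of other samples. Mitochondrial intervals were set aside (53760 remained). Abutting intervals were joined, coordinates are 1-based, and overlaps with 1 kb around annotated gene ends were counted for all protein-coding genes. Starts and strands came from the RefSeq promoter table (82 members matched), using the outermost start. Members, lists, motifs and alternatives were chosen with earlier results of these data known. Genes named are those without a region, complex II, complex I core subunits, isoform pairs, and the widest and narrowest per complex; others were chosen after their values were seen. Divergent neighbours, CpG content and families were added likewise. Some genes are not reported here by name. Overlap code was tested on simulated data. Python 3.11.15, numpy 2.4.6, pandas 2.3.3 and matplotlib 3.10.9 were used.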

Additional observations from a re-analysis of the deposited data

How the results depend on the processing

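No paired analysis was possible because the deposited list names no library. The 9 results were the 7 counts of genes with a region, the median width and the number of single-interval regions. Across 97 recomputed values, 85 stayed within 1.5 times the reported value. Many of these could hardly move. Leaving abutting intervals unjoined cannot change a gene count, and counts close to the full set of genes cannot rise 1.5 times. The tally is therefore no measure of how firm the results are. The 89 genes with a region became 82 by region midpoint, 88 with a window of 500 bp and 86 without single-interval regions. Counting only regions of at least the median width gave 44 genes, with 15 in complex I, 4 in complex III, 4 in complex IV and 6 assembly factors, a median width of 3008.5 bp and 2 single-interval regions. Single-interval regions fell from 5 to 3 by midpoint, by starts alone and with 500 bp of overlap. Starts alone gave 5 genes in complex III, because only 5 have a known start. Unjoined intervals had a median of 417 bp. The start-or-end alternative (91 genes) was added after the data were examined. Depth, background and condition are unknown, so a missing region means only that none was listed.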

Other observations

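The mitochondrial chromosome, which encodes the remaining respiratory chain subunits, carried 4 deposited intervals that were used in no comparison. They formed 2 abutting pairs, of 4670 and 119 bp from position 1 to 4789 and of 17 and 5444 bp from 10839 to 16299. They overlapped 6 of the 13 protein-coding genes there.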
